A study of Homo sapiens with 3 samples.

Results

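TGF-beta signalling was described at the level of transcripts through 10 genes, which encode its ligands (TGFB1, TGFB2 and INHBA), its receptors (TGFBR1 and TGFBR2), its SMAD proteins (SMAD2, SMAD3 and SMAD4) and its inhibitors (SMAD7 and SKIL). The genes were taken by symbol from a table of 19076 gene entries, where all 10 were found. All of them were among the 11579 genes that averaged 1 RPKM or more, on which comparisons were made; RPKM is a read count scaled to gene length and to the library total. The RNA came from MDA-MB-231, a triple-negative human breast cancer line, whose KAP1 had been depleted by a short hairpin RNA in every group and replaced by 1 of 3 forms. KAP1, the product of TRIM28, is a corepressor that zinc finger proteins bring to chromatin. The S473D form carries aspartate, whose charge imitates phosphoserine, in place of a serine that can be phosphorylated, the S473A form carries alanine, which cannot be phosphorylated, and the wt form keeps the serine. Each form gave 1 library, and the labels do not say whether the cells were a pool or a clone. With 1 library per form there is no replicate error and no test, so each difference below describes a pair of libraries. The comparisons ask how transcript levels under each substitution differ from those under the wild-type protein, and how the substitutions differ between themselves.

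The ligands of this pathway bind a type II receptor kinase, which recruits and activates a type I receptor kinase. The activated type I receptor phosphorylates SMAD2 and SMAD3, which join SMAD4, enter the nucleus and act on target genes together with other transcription factors. SMAD7 and SKIL are themselves induced by the signal and hold it back, SMAD7 at the receptor and SKIL on chromatin. In breast epithelium TGF-beta restrains growth, while in advanced breast tumours it is known for promoting invasion and spread, and MDA-MB-231 is a common model of that behaviour.

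TRIM28 stood at 25.6 RPKM in S473D, 32.3 in S473A and 28.7 in wt cells, and these values do not separate the cells' own transcript from the re-expressed one. The estimated depth was 23900000 counted reads for S473D, 29700000 for S473A and 25600000 for wt. Of 8 markers listed for breast lines, VIM stood between 673 and 740 RPKM, KRT18 between 169 and 188, CD44 between 119 and 156 and EGFR between 49.5 and 62.6. ERBB2 stood between 5.34 and 7.94 RPKM, and ESR1, PGR and CDH1 were at or below 0.240 RPKM in every library. Of 11 listed markers of leukocytes, endothelium, fibroblasts and other epithelium, 9 were measured here, and their summed level was 0.733 RPKM in S473D, 0.714 in S473A and 0.859 in wt, with PTPRC and PDGFRA at 0 in S473D, PTPRC and KRT14 at 0 in S473A and KRT14 at 0 in wt.

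The promoters of 5 of the genes are shown because these genes mark the ends of the result: INHBA was the highest of the 10 relative to wt, TGFB1 and SMAD3 were the lowest in S473D, and SMAD7 and SKIL are the inhibitors that the signal itself induces. Each stretch holds the 250 bases before the most upstream start that RefSeq gives for the gene, from its tables for build GRCh38.p14, which is not the build used for the deposited values (hg19). Capitals mark, on either strand, CAGAC or its complement GTCTG (the short box that SMAD3 and SMAD4 bind), GGGCGG or CCGCCC (the GC box bound by SP1) and TGACGTCA (the cyclic AMP response element). No capitals from different motifs overlap in these stretches.
INHBA, chr7:41703091-41703340, minus strand: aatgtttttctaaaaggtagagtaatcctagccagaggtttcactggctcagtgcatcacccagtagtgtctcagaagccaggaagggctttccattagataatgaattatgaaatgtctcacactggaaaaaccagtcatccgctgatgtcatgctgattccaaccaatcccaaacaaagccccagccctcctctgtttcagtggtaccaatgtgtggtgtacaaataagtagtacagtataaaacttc
TGFB1, chr19:41353923-41354172, minus strand: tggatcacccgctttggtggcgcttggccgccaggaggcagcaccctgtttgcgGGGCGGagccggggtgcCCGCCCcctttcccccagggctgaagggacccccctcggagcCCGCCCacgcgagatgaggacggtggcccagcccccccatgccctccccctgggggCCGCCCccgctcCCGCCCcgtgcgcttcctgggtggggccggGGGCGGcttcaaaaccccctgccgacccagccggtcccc
SMAD3, chr15:67065352-67065601, plus strand: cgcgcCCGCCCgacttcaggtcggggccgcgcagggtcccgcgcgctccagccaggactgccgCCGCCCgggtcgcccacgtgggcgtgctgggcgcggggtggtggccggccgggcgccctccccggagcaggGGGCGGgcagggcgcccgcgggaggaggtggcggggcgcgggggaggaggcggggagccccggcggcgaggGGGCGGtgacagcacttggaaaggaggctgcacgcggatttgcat
SMAD7, chr18:48950966-48951215, minus strand: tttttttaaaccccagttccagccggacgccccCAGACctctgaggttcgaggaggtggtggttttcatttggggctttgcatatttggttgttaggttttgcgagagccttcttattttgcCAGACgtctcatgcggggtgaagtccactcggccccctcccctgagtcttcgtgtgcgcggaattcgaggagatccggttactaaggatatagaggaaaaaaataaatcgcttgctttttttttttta
SKIL, chr3:170357465-170357714, plus strand: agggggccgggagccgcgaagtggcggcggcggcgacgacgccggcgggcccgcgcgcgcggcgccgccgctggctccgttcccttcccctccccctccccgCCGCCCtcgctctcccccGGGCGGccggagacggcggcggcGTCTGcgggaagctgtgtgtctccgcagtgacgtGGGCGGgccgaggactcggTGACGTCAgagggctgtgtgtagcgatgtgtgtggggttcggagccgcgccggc
The stretch before INHBA held none of these motifs and was 42.8% G and C. Those before TGFB1 and SMAD3 held 6 and 4 GC boxes and were 76.8% and 80.8% G and C, against a median of 57.6% over 27305 promoters. A GC box was found in 42.2% of those promoters, at least 4 in 7.75% and at least 6 in 2.23%. The stretch before SMAD7 held 2 SMAD boxes and the one before SKIL held 1, while 37.9% of all promoters held at least 1. SKIL also had a cyclic AMP response element, found in 1.75% of promoters. Among all 10 genes, 5 had a GC box and 3 a SMAD box in this window. The stretches before TGFBR1 and TGFBR2 also held none of these motifs, at 44% and 40.8% G and C. Those before SMAD2 and SKIL each held 3 GC boxes at 78.4% G and C. Their S473D minus wt differences in log2(RPKM + 1) were small, at -0.18 for SMAD2 and -0.13 for SKIL. SMAD4 held 2 GC boxes at 68.4%. A link between promoter sequence and the differences was not tested. These are matches of letters in a short window, and genes with several starts may use another one in these cells. In the GENCODE annotation INHBA, SMAD3 and SMAD7 begin further upstream, so the stretches shown for them lie inside the annotated genes.

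Among the ligands, INHBA was higher in both mutant forms than in wt, while TGFB1 was lower in S473D alone. INHBA encodes the beta A subunit of activin A, a ligand that uses its own receptors and the same SMAD2 and SMAD3. INHBA stood at 3.47 RPKM in S473D, 2.81 in S473A and 1.85 in wt. It was the one gene of the 10 whose order ran from S473D at the top to wt at the bottom. The ratio of S473D to wt was 1.87 (95% interval 1.62 to 2.17) and that of S473A to wt 1.51 (1.31 to 1.76). Here and below, intervals around RPKM ratios are exact, rest on estimated read numbers and cover counting error only. S473D exceeded S473A by a ratio of 1.23 (1.09 to 1.40).

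TGFB1 encodes the founding ligand of the family, which is secreted in a latent form. Its level was 10.3 RPKM in S473D, 18.1 in S473A and 17.7 in wt, so that S473D stood apart and the other two libraries lay close together. The ratio was 0.580 between S473D and wt (0.528 to 0.637), 0.565 between S473D and S473A (0.516 to 0.620) and 1.03 between S473A and wt (0.951 to 1.11). TGFB1 shares 215 of its 3238 exon bases with HNRNPUL1 on the opposite strand in the GENCODE annotation. HNRNPUL1 stood at 70.0 RPKM in S473D, 102.7 in S473A and 104 in wt, and since no strand setting is given, reads from the shared stretch cannot be told apart.

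TGFB2, a ligand that depends more than TGFB1 on the co-receptor betaglycan, stood at 3.45 RPKM in S473D, 4.16 in S473A and 4.76 in wt. Its levels were stepped, with a ratio of 0.724 between S473D and wt (0.637 to 0.822) and 0.874 between S473A and wt (0.781 to 0.981). The noncoding TGFB2-OT1 covers 1371 of the 5151 exon bases of TGFB2 on the same strand, and their reads cannot be separated. Summed over the ligands, RPKM came to 17.2 in S473D, 25.1 in S473A and 24.3 in wt, and INHBA made up 20.2% of that sum in S473D, 11.2% in S473A and 7.63% in wt.

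**Figure D1:**
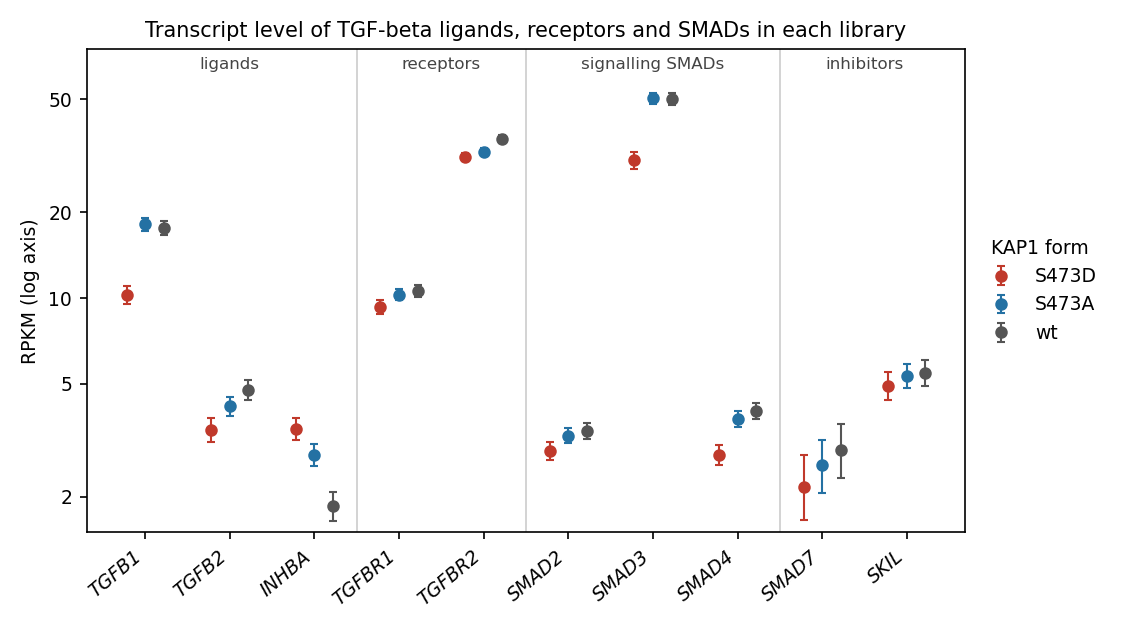
RPKM on a log axis of each gene in each library, with S473D in red, S473A in blue and wt in grey. Points are single libraries and bars are 95% counting intervals; S473D is the lowest point for 9 genes and the highest for INHBA, at 3.47 RPKM.

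The receptor transcripts differed little. TGFBR2, the type II kinase that binds ligand first, stood at 31.4 RPKM in S473D, 32.7 in S473A and 36.3 in wt. Both mutant forms were lower than wt, with ratios of 0.864 in S473D (0.826 to 0.904) and 0.901 in S473A (0.864 to 0.940). The ratio of S473D to S473A was 0.959, with an interval that began at 0.917 and ended just above 1. TGFBR1, the type I kinase that phosphorylates SMAD2 and SMAD3, stood at 9.29 RPKM in S473D, 10.3 in S473A and 10.6 in wt. Its ratio to wt was 0.876 in S473D (0.813 to 0.944) and 0.970 in S473A (0.905 to 1.04). The 2 receptors kept nearly the same proportion, as TGFBR2 was 3.38 times TGFBR1 in S473D, 3.18 times in S473A and 3.42 times in wt.

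SMAD3 gave the clearest difference among the signalling SMADs. This DNA-binding SMAD stood at 30.6 RPKM in S473D, 50.4 in S473A and 50.2 in wt. S473A and wt were within counting error of each other (the interval of their ratio ran over 0.935 to 1.08), and S473D was lower than both, at a ratio of 0.609 to wt (0.559 to 0.664) and 0.607 to S473A (0.558 to 0.660). SMAD2, its close relative, was at 2.90 RPKM in S473D, 3.28 in S473A and 3.41 in wt, a ratio of 0.850 between S473D and wt (0.770 to 0.938). Per length, SMAD3 exceeded SMAD2 by 10.5 times in S473D, 15.3 times in S473A and 14.7 times in wt. That proportion rests on transcript lengths that differ widely between isoforms, from 10445 to 34526 bases among the RefSeq-linked transcripts of SMAD2 and 1147 to 6247 bases among those of SMAD3. SMAD3 also shares 182 of its 9113 exon bases with the antisense AC087482.1, whose reads cannot be told apart there without a strand setting.

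SMAD4, the partner shared by all signalling SMADs, stood at 2.81 RPKM in S473D, 3.76 in S473A and 4.01 in wt. S473D was lower than both, with ratios of 0.702 to wt (0.632 to 0.780) and 0.749 to S473A (0.675 to 0.830). S473A and wt were not separated by counting error (0.938, 0.855 to 1.03). SMAD3 exceeded SMAD4 by 10.9 times in S473D, 13.4 times in S473A and 12.5 times in wt, a proportion that rests on the same lengths of SMAD3. SMAD4 shares 967 of its 13123 exon bases with AC091551.1 on the same strand, and reads from that stretch cannot be told apart.

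With read numbers estimated from their shortest transcripts, the inhibitors were not separated between any pair of libraries beyond counting error. SMAD7, which brings ubiquitin ligases to the active receptor, stood at 2.17 RPKM in S473D, 2.58 in S473A and 2.92 in wt. As few as 60 reads were estimated behind a value of SMAD7 from its shortest transcript, which made its intervals wide. Its ratio to wt was 0.742 in S473D (0.529 to 1.05) and 0.883 in S473A (0.649 to 1.20). SKIL, which encodes the SMAD corepressor SnoN, stood at 4.91 RPKM in S473D, 5.33 in S473A and 5.46 in wt. Its ratio to wt was 0.898 in S473D (0.773 to 1.05) and 0.977 in S473A (0.850 to 1.13). The shortest RefSeq-linked transcript has 1152 bases for SMAD7 and 2702 for SKIL, and the longest has 4428 and 7182. A longer transcript would give more estimated reads and narrower intervals. Whether the inhibitors differ between libraries beyond counting error was therefore not settled.

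**Figure D2:**
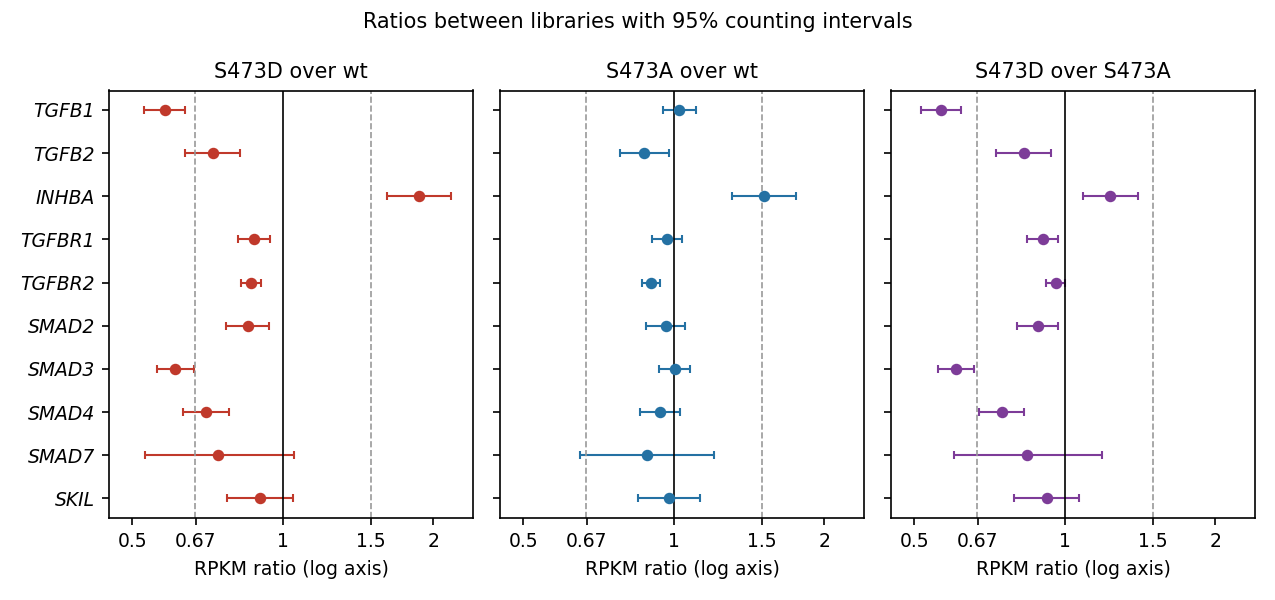
Ratio of RPKM between each pair of libraries on a log axis, with exact 95% counting intervals; dashed lines mark 1.5-fold in either direction. TGFB1 and SMAD3 lie below the lower dashed line wherever S473D is compared, and INHBA lies above 1 in all 3 panels.

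In order of level, SMAD3 came first in S473A and wt and TGFBR2 second, while in S473D TGFBR2 at 31.4 RPKM and SMAD3 at 30.6 RPKM had overlapping intervals (30.3 to 32.4 and 28.5 to 32.7). TGFB1, TGFBR1 and SKIL followed at places 3, 4 and 5 in every library. INHBA was at place 6 in S473D, 9 in S473A and 10 in wt. In S473D it lay beside TGFB2, at 3.47 against 3.45 RPKM, and their intervals overlapped. SMAD7 was at place 10 in S473D and S473A and at place 9 in wt.

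On the log2(RPKM + 1) scale, where differences of low genes are understated, the S473D minus wt difference was -0.73 for TGFB1, -0.70 for SMAD3 and 0.65 for INHBA. All counts at 1.5-fold or 2-fold are on that scale, where a gene can stay under the limit while its ratio of RPKM is past it. These 3 genes were at least 1.5-fold apart, as were 10.1% of all genes, and none of the 10 was 2-fold apart. Thus 1 of 10 was 1.5-fold higher, where 6.82% of all genes were, and 2 of 10 were 1.5-fold lower, where 3.23% of all genes were. At 2-fold, 1.09% of all genes were apart. The other differences were -0.39 for SMAD4, -0.37 for TGFB2, -0.31 for SMAD7, -0.20 for TGFBR2, -0.18 for SMAD2, -0.17 for TGFBR1 and -0.13 for SKIL. In all, 9 of 10 lay below 0, as did 60.7% of all genes, and the median of the 10 was -0.26 against -0.10 for all genes. Relative to that median the values were -0.63 for TGFB1, -0.60 for SMAD3 and 0.75 for INHBA.

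Between S473A and wt no member was 1.5-fold apart on the log2(RPKM + 1) scale, where 0.095% of all genes were higher and 0.147% lower, 0.242% in all. The RPKM ratio of INHBA, at 1.51, was just past that size. None was 2-fold apart, as 0.0173% of all genes were. INHBA had the largest difference of the 10, at 0.42, and 99.7% of all genes had a lower one. TGFB2 (-0.16), TGFBR2 (-0.15) and SMAD7 (-0.13) had lower values in S473A than in wt, and the other 6 lay between -0.07 and 0.03. Of the 10, 7 lay below 0, as did 50.2% of all genes, and the median was -0.04, against 0.00 for all genes. The interval excluded a ratio of 1 for INHBA, TGFB2 and TGFBR2.

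Between S473D and S473A, 2 members were 1.5-fold lower, TGFB1 (-0.77) and SMAD3 (-0.70), where 3% of all genes were, and none was 1.5-fold higher, where 6.86% of all genes were, or 9.85% in either direction. None was 2-fold apart, against 1.13% of all genes. The median of the 10 was -0.16, against -0.10 for all genes. S473D was the lower of the pair for 9 of 10 genes (60.7% of all genes), but not for TGFBR2 under any of 3 alternatives: centring (0.04), trimmed-mean scaling (0.05) and removal of length and GC trends (0.05). SKIL turned to 0.00 on centring and SMAD7 to 0.08 on trend removal. The comparisons share libraries, so the values of a gene in them are not independent of each other.

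**Figure D3:**
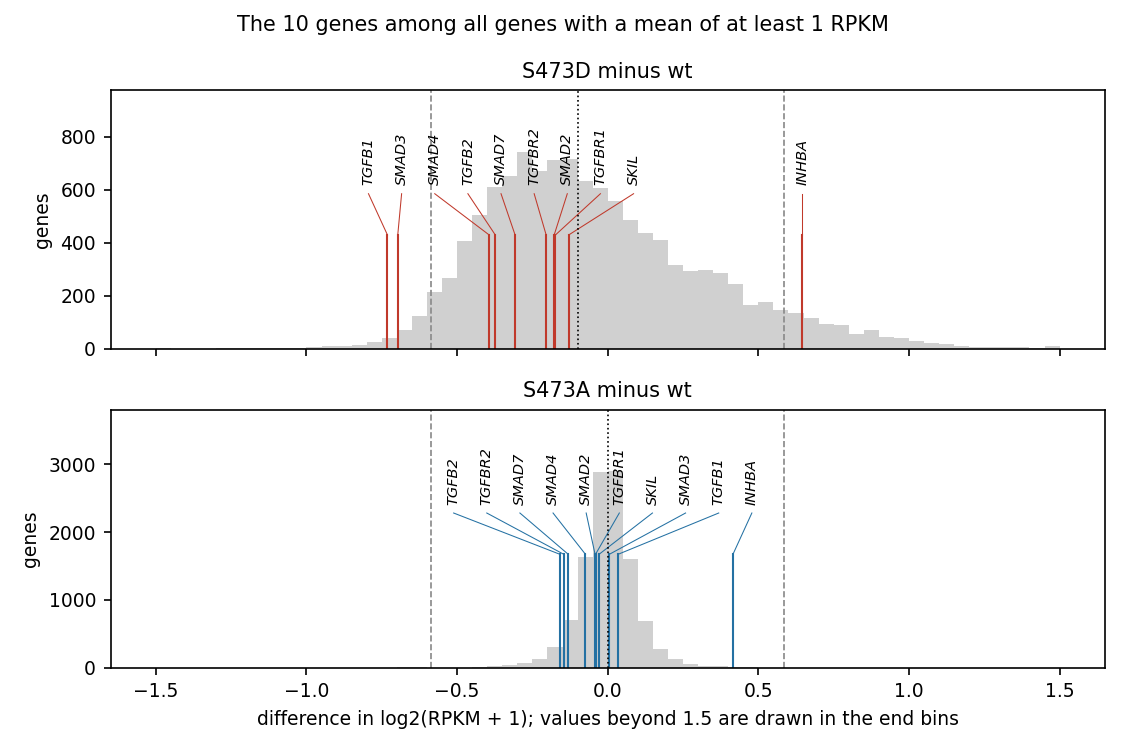
Histograms of the difference in log2(RPKM + 1) over 11579 genes, S473D minus wt above and S473A minus wt below, with the 10 genes as coloured lines. Dashed lines mark 1.5-fold and the dotted line the median of all genes; TGFB1 at -0.73 and SMAD3 at -0.70 lie in the lower tail above, and INHBA at 0.42 in the upper tail below.

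Transcript length moved with the difference between S473D and wt across all genes, and most of the 10 genes have long transcripts. Among 3669 genes with transcripts of 4000 to 9000 bases the median difference was -0.22 and 79.6% lay below 0. Of the 8 members in that range 7 lay below 0, a share near that of the range. The exception was INHBA, at 0.65, where 1.28% of genes of such length were 1.5-fold higher. SMAD3, at -0.70, was among the 4.47% of these genes that were 1.5-fold lower. TGFB1 has a shorter transcript of 2769 bases that is 63.5% G and C. The range above was set by length alone and leaves out GC content. Measured from the median of all genes, smooth trends on both were above 0 for TGFB2 (0.05), INHBA (0.02), TGFBR1 (0.02) and SKIL (0.16). They were below 0 for TGFBR2 (-0.12), SMAD3 (-0.24), SMAD4 (-0.07) and SMAD7 (-0.25).

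After smooth trends on length and GC content were removed, the S473D minus wt difference was -0.60 for TGFB1, -0.46 for SMAD3 and 0.63 for INHBA, with a median of -0.10 for all genes. SMAD3 was then no longer 1.5-fold apart. The other values were -0.42 for TGFB2, -0.32 for SMAD4, -0.29 for SKIL, -0.19 for TGFBR1, -0.13 for SMAD2, -0.09 for TGFBR2 and -0.06 for SMAD7. TGFBR2 and SMAD7 thus lay above the median of all genes. SKIL, at -0.13 before the step, was already below that median and then lay further below it. The part of length and GC content in these differences was not tested beyond this step.

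**Figure D4:**
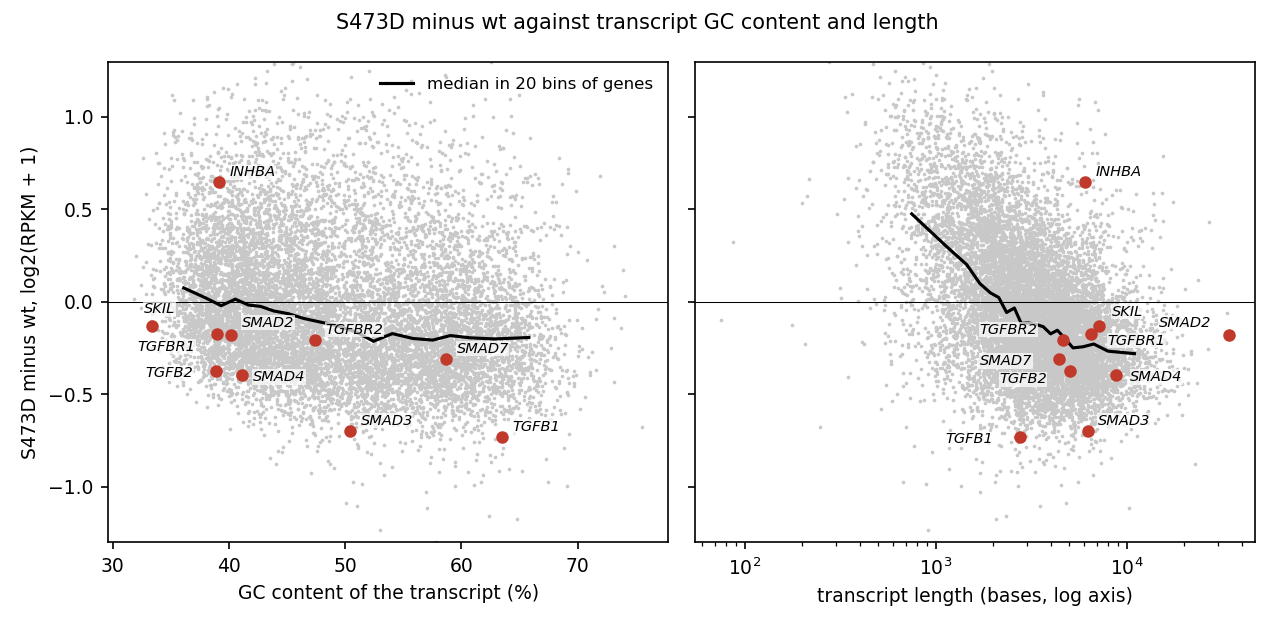
S473D minus wt difference in log2(RPKM + 1) against transcript GC content (left) and transcript length on a log axis (right); grey dots are genes, red dots the 10 genes, and the black line the median in 20 bins of genes; genes beyond 1.3 either way are not drawn. The line falls with length, most of the 10 genes lie in its lower stretch, and INHBA at 0.65 lies far above it.

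The rest of the pathway was described with 102 genes in 6 lists, of which 72 averaged 1 RPKM or more. In S473D against wt none of these was 1.5-fold higher and 5 (6.94%) were 1.5-fold lower, beside 6.82% and 3.23% of all genes. The 5 were KLF10, GDF11, COL4A2, FN1 and SKI. None of them was past 1.5-fold after centring, which put KLF10 lowest at -0.57, and with the trends removed KLF10 was (-0.62) while the others lay between -0.36 and -0.24. The median of the 72 was -0.23, and 56 lay below 0, where 60.7% of all genes did. In S473A against wt 1 (1.39%) was 1.5-fold lower, the fibronectin gene FN1, where 0.147% of all genes were. None was 1.5-fold higher, where 0.095% of all genes were, and the median of the 72 was -0.02. Between S473D and S473A none was 1.5-fold higher and 3 (4.17%) were 1.5-fold lower, beside 6.86% and 3% of all genes, so that the share lower was near that of all genes. The 3 were SKI (-0.61), CREBBP (-0.60) and LTBP4 (-0.59), and none of them was past 1.5-fold after centring (-0.51, -0.49 and -0.49) or with the trends removed (-0.27, -0.22 and -0.19).

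Other ligands were mostly low, with 13 of 17 under a mean of 1 RPKM, TGFB3 among them. Of the 4 measured, GDF11, a relative of myostatin, was 1.5-fold lower in S473D than in wt (4.56 against 7.43 RPKM, -0.60), and BMP4 was at 4.69 against 7.20 RPKM (-0.53). INHBB, which encodes the other activin beta subunit, stood at 2.12 RPKM in S473D, 3.55 in S473A and 3.64 in wt. INHBA thus exceeded INHBB in S473D, with a ratio of 1.64, and was below it in S473A (0.791) and wt (0.509). Follistatin, encoded by FST, binds and neutralises activin, and FST stood at 2.59 RPKM in S473D, 1.89 in S473A and 2.32 in wt.

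Among 11 measured genes for ligand activation and trapping, none was 1.5-fold apart from wt in either mutant on the log2(RPKM + 1) scale. Of all genes, 10.1% were in S473D and 0.242% in S473A. The S473D median of the list was -0.08, against -0.10 for all genes. LTBP4, which tethers latent TGF-beta to matrix, stood at 11.3 RPKM in S473D against 17.0 in wt (-0.55), and the gene for the ligand-cleaving protease FURIN at 24.0 against 32.2 (-0.41). THBS1, whose product thrombospondin can release active TGF-beta, was at 55.9 against 48.9 RPKM (0.19), and the activin trap FSTL3 at 9.74 against 8.52 (0.17). Among genes averaging 5 RPKM or more, the ends of the list in S473A were THBS1 (-0.10), LTBP1 (-0.08), NOG (0.07) and LTBP2 (0.05).

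None of 9 measured other receptors was 1.5-fold apart from wt in either mutant, where 10.1% of all genes were in S473D and 0.242% in S473A. In S473D 8 lay below 0 (median -0.30), where 60.7% of all genes and 79.6% of those with transcripts of 4000 to 9000 bases did. The activin type I receptor ACVR1B stood at 2.98 RPKM in S473D, 4.31 in S473A and 4.39 in wt, and the type II receptor ACVR2A at 1.42, 1.56 and 1.54 RPKM in the same order. ACVR1, a type I receptor for bone morphogenetic proteins, was at -0.36 in S473D and -0.04 in S473A, and BMPR1A at -0.10 and 0.03. The SMADs of the bone morphogenetic protein branch lay closer to wt than SMAD3 did in S473D, with SMAD1 at -0.16 and SMAD5 at -0.14. SMAD2, of the same branch as SMAD3, was beside them at -0.18. With the trends on length and GC content removed, SMAD1 was at -0.30, SMAD5 at -0.21 and SMAD2 at -0.13. In S473A SMAD1 and SMAD5 were at 0.04 and -0.02.

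Of 22 measured SMAD partners and regulators, 18 lay below 0 in S473D (median -0.26), where 60.7% of all genes and 79.6% of those with transcripts of 4000 to 9000 bases did, and 1 was 1.5-fold lower, as 3.23% of all genes were. That was SKI, the corepressor related to SKIL, at 9.78 RPKM in S473D, 15.5 in S473A and 15.2 in wt. SKIL was 0.502 of SKI in S473D, 0.345 in S473A and 0.359 in wt. The coactivator CREBBP was at -0.55 in S473D. USP15, a deubiquitinase of the receptor complex, was at 0.35 and FKBP1A, whose product holds the type I receptor inactive, at 0.16. With a mean of 5 RPKM or more, the list ended in S473A at TGIF2 and TGIF1 (both -0.12), EP300 (0.10) and ZFYVE16 (0.06). TGIF2 shares exons with a readthrough gene, so that its value is uncertain.

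Transcriptional targets of the pathway went both ways. Of 23 measured, 17 lay below 0 in S473D (median -0.23), where 60.7% of all genes and 79.6% of those with transcripts of 4000 to 9000 bases did. In S473D 3 were 1.5-fold lower than wt, as 3.23% of all genes were, and none was 1.5-fold higher, where 6.82% of all genes were. The 3 were KLF10, an early TGF-beta response gene, at 12.0 RPKM in S473D, 17.2 in S473A and 19.7 in wt, the collagen IV gene COL4A2 at 20.6, 30.8 and 31.6, and FN1 at 7.43, 6.67 and 11.7. JUNB, which encodes a subunit of the AP-1 transcription factor, was at 0.20 in S473D, with 15.3 RPKM against 13.2 in wt. For genes at 5 RPKM or more, the ends of the list in S473A were FN1 (-0.73), TGFBI (-0.25), SNAI2 (0.13) and CDKN1A (0.08).

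**Figure D5:**
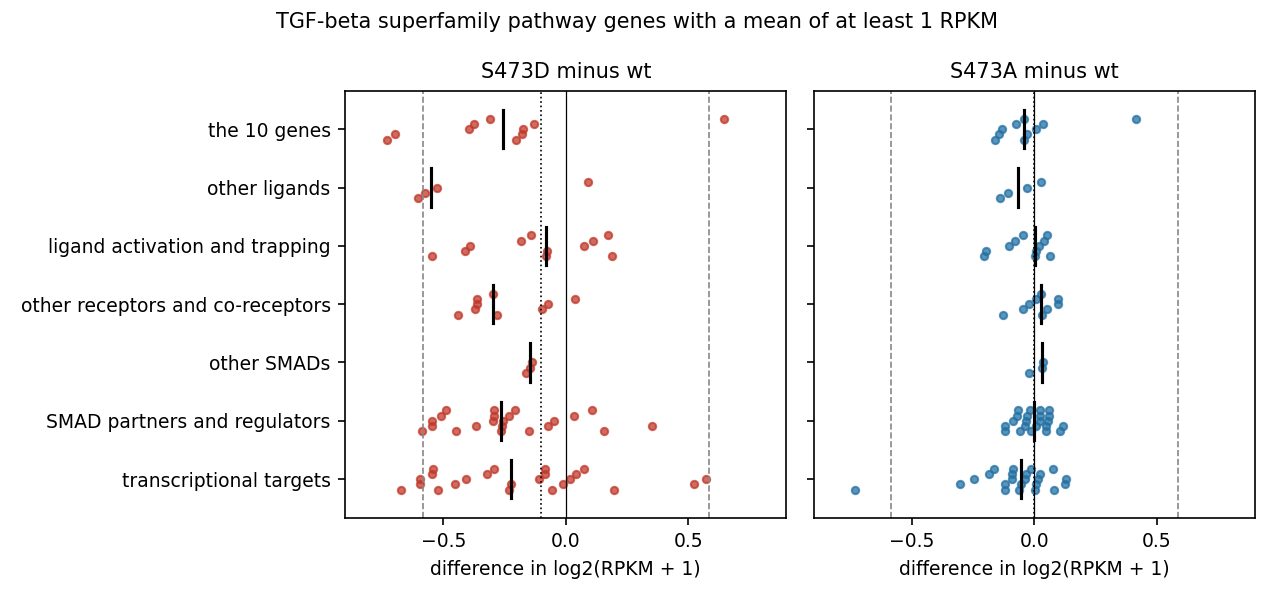
Difference from wt in log2(RPKM + 1) of measured pathway genes, 1 dot per gene, for S473D (left) and S473A (right). Black bars are list medians, dashed lines mark 1.5-fold and the dotted line the median of all genes; in S473D most lists lie left of 0, with a median of -0.26 for the 10 genes, and in S473A they gather near 0.

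The genes nearest to TGFB1 in their pair of differences from wt, out of 8186 genes averaging 5 RPKM or more, were SF1, GIT1 and RFFL. The distances were 0.02, 0.03 and 0.03 on the log2 scale, over 3 libraries. SF1, for example, stood at 61.3 RPKM in S473D, 102.9 in S473A and 101.7 in wt.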

How the data were processed

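Per the labels' protocols, TRIzol was used to isolate total RNA and sequencing libraries followed Illumina's standard procedure. The submitters' processing notes name Bowtie, Partek and build hg19; for versions, annotation, counting rule and strand setting the sources used here give nothing. The deposited table holds log2 RPKM values, and its lowest value, -3.32, is the log2 of 0.1, so RPKM was recovered by undoing the log and subtracting 0.1. Lines whose symbol had become a date (27) and 169 short RNAs were left out.

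Differences were taken on log2(RPKM + 1) over genes averaging 1 RPKM or more. With 1 library per form no test was made; genes were counted at 1.5-fold and 2-fold. Depth was estimated as the number of reads that most often gave whole reads (within 2%) for low genes with GENCODE release 29 lengths; this held for 52.3% to 54.7% of those values, so depths are approximate. Exact 95% intervals used these depths and each gene's shortest RefSeq-linked transcript, which widens them. Length and GC trends (lowess, fraction 0.2, 2 rounds) used the longest such transcript, available for 11308 genes (97.7%) and all 10 members. The scripts were tested on simulated data.

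The members, lists and alternatives were chosen with earlier results of these data known. Named genes were the members, TRIM28, the 2 highest and 2 lowest of each list averaging 5 RPKM or more, per comparison with wt, any list gene 2-fold apart, and the 3 nearest in pattern to the member furthest from wt in S473D. INHBB, FST, ACVR1B, ACVR2A, LTBP4's value against S473A and FN1 in S473D were added after their values were seen. TGFB3, TAGLN and CYR61 are also named outside this rule, as are genes that overlap a member. One gene that the rule names is not reported here. The analysis used Python 3.11.15, pandas 2.3.3, SciPy 1.17.1 and statsmodels 0.14.6.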

Additional observations from a re-analysis of the deposited data

How the results depend on the processing

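Values were recomputed with a pseudocount of 0.1 or 0.5, without the filter on low genes or with one at 5 RPKM, and after centring, trimmed-mean scaling or removal of length and GC trends. In S473D against wt, every member but INHBA stayed below 0 and INHBA above 0 under each setting that kept it (5 of 10 members pass a mean of 5 RPKM). The number of members at least 1.5-fold apart between S473D and S473A was 1 instead of 2 with the trends removed. For pathway genes 1.5-fold apart from wt in S473D, the count of 5, all lower, became 10 with a pseudocount of 0.1. With centring or trimmed-mean scaling it became 2, each higher than wt and neither among the 5. With the trends removed it was again 5, but only KLF10 was among the earlier 5. Of the others, BMP4 (-0.67), TAGLN (-0.63) and CYR61 (-0.61) were lower and 1 gene was higher. Between S473D and S473A the count of 3 became 7 with that pseudocount, 0 with centring or scaling and 1 with the trends removed. The remaining 76 of 84 such summary values stayed within their counting error or within 1.5 times, as did 185 of 195 single-gene values. No difference past 1.5-fold changed sign, while the smaller ones between S473D and S473A of TGFBR2, SKIL and SMAD7 did under the settings given with them above. INHBA in S473D against wt was 0.87 with a pseudocount of 0.1. Of all genes, 9.55% were 1.5-fold higher and 1.11% lower in S473D than wt after centring, and 1.75% and 3.31% with the trends removed. SMAD7 had the fewest estimated reads, 60 to 88 per library, a number that rests on its shortest transcript of 1152 bases. No paired analysis was possible because each form has 1 library.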
